A study of Mus musculus with 2 samples.

Results

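The glucocorticoid-responsive genes described here are the glucocorticoid receptor gene Nr3c1 and 9 genes known as its targets: Fkbp5, Zbtb16, Per1, Tsc22d3, Sgk1, Klf9, Dusp1, Nfkbia and Mt2. They are 10 of the 23183 genes in the table, were picked by symbol, and were all found. The set was drawn up with the levels of these same libraries known, so the difference of each gene between the genotypes is a description, and no test was made on it.

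The study measured polyadenylated RNA of mouse neonatal epidermis by RNA-seq in 2 libraries. The WT library came from wild-type mice of the C57BL/6 strain. The L19M library came from C57BL/6 mice that carry the L19M allele of Foxn1 on both chromosomes, and neither group has a treatment in its labels. Foxn1 encodes a forkhead transcription factor of hair-follicle and epidermal keratinocytes and of thymic epithelium, and mice that lack its function are the nude mice. The allele is carried in the germ line, so it is present in every cell of the animal, and the sources used here do not give how many pups, of which sex or day of age, went into each. With 1 library per genotype there is no spread between replicates, so every difference below compares these libraries and has no replicate check.

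Glucocorticoids are steroid hormones of the adrenal cortex, and skin can also make and activate them locally. Without hormone the receptor waits in the cytoplasm in a complex with Hsp90 and its helper proteins. With hormone it moves to the nucleus, where pairs of receptors bind glucocorticoid response elements and turn on target genes, and where it also holds back inflammatory genes driven by NF-kappaB and AP-1. In mouse epidermis the receptor is known for its part in forming the skin barrier before birth and in restraining inflammation.

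Levels are given as FPKM, fragments scaled by transcript length and library total, so they can be compared between genes. The log2 ratio is log2((FPKM in L19M + 1)/(FPKM in WT + 1)), and genes with a mean of at least 1 FPKM over the libraries are called measured. A gene under 1 FPKM in 1 library is measured only if it is higher in the other, so the floor fixes its direction. Ratios of FPKM carry a 95% counting interval from fragments estimated for each gene. The interval covers counting error alone and says nothing of the spread between animals. The WT library held an estimated 14147995 fragments and the L19M library 19217765.

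The libraries differed in more than the Foxn1 allele. Foxn1 RNA itself had 3.74 FPKM (WT) and 5.44 FPKM (L19M), which does not check an allele that replaces an amino acid. RNA of 4 genes of the Y chromosome, listed after their values were seen, was abundant in WT and nearly absent from L19M, with Ddx3y at 18 and 0.0117 FPKM and Eif2s3y at 47.4 and 0.2 FPKM. Xist, the RNA that coats the inactive X chromosome, had 1.89 FPKM (WT) and 4.50 FPKM (L19M). Male RNA was therefore present in the WT library and nearly absent from the L19M library, and an effect of genotype cannot be told apart from one of sex. The summed level of 10 keratinocyte markers was 28088 FPKM (WT) and 28053 FPKM (L19M), with none at 0, so defining markers of the labelled tissue were present. Markers of other cells differed between the libraries. Summed levels in WT and L19M were 13.8 and 21.7 FPKM for endothelial cells (6 of 6 measured genes above 0), 130 and 165 FPKM for muscle (7 of 7 above 0), 392 and 301 FPKM for adipocytes (6 of 6 below 0, and Lep listed at 0 in L19M), 157 and 79.8 FPKM for sebocytes (6 of 6 below 0), and 144 and 20.4 FPKM for hair matrix and shaft (8 of 8 below 0). In such bulk libraries fewer cells of a type and less RNA per cell cannot be told apart, and the part of these markers in the values below was not tested.

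The promoters of the targets show which regulatory letters lie near their annotated starts. Windows of 300 bases, from 250 before to 50 after a start site, were found for 8 of the 10 genes, with 16 start sites in all, in the RefSeq table of build GRCm38.p6. The windows were searched on both strands for the core of the glucocorticoid response element (ACANNNTGT), its half-site (TGTTCT), the full cAMP response element (TGACGTCA) and its half-site (TGACG), the E-box (CACGTG), the core of the metal response element (TGCACNC) and the kappaB consensus. The half-site can overlap the glucocorticoid core, and TGACG is part of the full cAMP element. The windows of 5 targets follow, each 5′ to 3′ on the strand of its gene. They are shown because they hold the matches that differ most between genes. Capitals mark every match except TGACG alone. Positions count from 1 at the first transcribed base, with -1 just before it.
Fkbp5, chr17:28486100-28486399, minus strand: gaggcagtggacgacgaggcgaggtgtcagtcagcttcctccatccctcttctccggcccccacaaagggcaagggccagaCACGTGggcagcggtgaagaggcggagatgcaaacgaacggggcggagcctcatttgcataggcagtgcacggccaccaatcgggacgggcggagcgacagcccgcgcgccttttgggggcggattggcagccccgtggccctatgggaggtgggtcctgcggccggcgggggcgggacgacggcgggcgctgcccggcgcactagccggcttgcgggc
Sgk1, start site 5 of 6, chr10:21993640-21993939, plus strand: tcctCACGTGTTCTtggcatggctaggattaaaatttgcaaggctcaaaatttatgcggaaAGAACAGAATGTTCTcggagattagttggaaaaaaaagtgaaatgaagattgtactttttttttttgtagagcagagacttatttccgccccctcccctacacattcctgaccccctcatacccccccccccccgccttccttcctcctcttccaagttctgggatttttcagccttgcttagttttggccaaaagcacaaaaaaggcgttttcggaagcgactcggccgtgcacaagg
Nfkbia, chr12:55492598-55492897, minus strand: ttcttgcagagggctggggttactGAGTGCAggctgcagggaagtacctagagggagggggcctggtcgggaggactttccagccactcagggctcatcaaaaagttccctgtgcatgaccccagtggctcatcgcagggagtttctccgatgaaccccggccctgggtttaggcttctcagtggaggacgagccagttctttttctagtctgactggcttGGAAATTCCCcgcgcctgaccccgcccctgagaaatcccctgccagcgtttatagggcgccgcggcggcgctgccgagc
Dusp1, chr17:26508423-26508722, minus strand: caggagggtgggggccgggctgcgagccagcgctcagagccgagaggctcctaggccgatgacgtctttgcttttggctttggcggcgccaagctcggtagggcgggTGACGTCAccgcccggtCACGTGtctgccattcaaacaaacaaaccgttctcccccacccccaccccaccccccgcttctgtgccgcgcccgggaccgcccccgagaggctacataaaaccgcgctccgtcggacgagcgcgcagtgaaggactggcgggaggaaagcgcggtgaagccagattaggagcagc
Mt2, chr8:94172368-94172667, plus strand: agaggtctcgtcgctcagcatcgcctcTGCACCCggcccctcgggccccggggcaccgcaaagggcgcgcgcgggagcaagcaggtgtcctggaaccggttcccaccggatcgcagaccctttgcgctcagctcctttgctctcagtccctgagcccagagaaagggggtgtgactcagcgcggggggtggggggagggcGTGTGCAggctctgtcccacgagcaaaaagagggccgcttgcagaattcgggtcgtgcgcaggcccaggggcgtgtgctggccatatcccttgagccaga

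Among these windows a glucocorticoid core was found in Sgk1 alone. At the fifth start site a pair of half-sites facing each other 3 bases apart, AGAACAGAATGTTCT, lies from -189 to -175, and another half-site lies from -242 to -237 and overlaps an E-box. Such an inverted pair is the classical full response element and was in 3 of the 32841 windows of the table (0.00913%). The pair was not among the planned motifs and the Sgk1 window is itself 1 of the 3, so nothing is read from that share. The core alone was in 6.85% of all windows and the half-site in 19%. Sgk1 also had a core from -127 to -119 at the second start site and single half-sites at the first and the fourth. Tsc22d3 had 1 half-site, from -185 to -180 at its first start site. The windows of Fkbp5, Per1, Klf9, Dusp1, Nfkbia and Mt2 held neither motif, which says only that these letters are not in these windows. Elements far from the start, as are known for Fkbp5 and Per1 in introns and upstream, were outside the search.

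The other motifs searched belong to further inputs known for these genes. An E-box, the site of the circadian CLOCK and BMAL1 pair, lay in Fkbp5 (-169 to -164), in the first window of Per1 (-166 to -161) and in Dusp1 (-126 to -121), and was in 7.15% of all windows. Dusp1 held the full cAMP response element from -143 to -136, as did 1.79% of all windows. The half-site TGACG, in 20.8% of windows, was in both Per1 windows, in Klf9, in Dusp1 outside the full element, in 1 window of Tsc22d3 and in 1 of Sgk1. The kappaB consensus, in 8.46% of all windows, was in Nfkbia from -29 to -20 and in the window of Tsc22d3 at start site 3, from 14 to 23. Nfkbia also held a metal response core from -226 to -220. Mt2 held metal response cores at -223 to -217 and -50 to -44, a motif in 12.6% of all windows. The 16 windows had a median GC content of 60.6%, against 52.7% over the table.

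**Figure D1:**
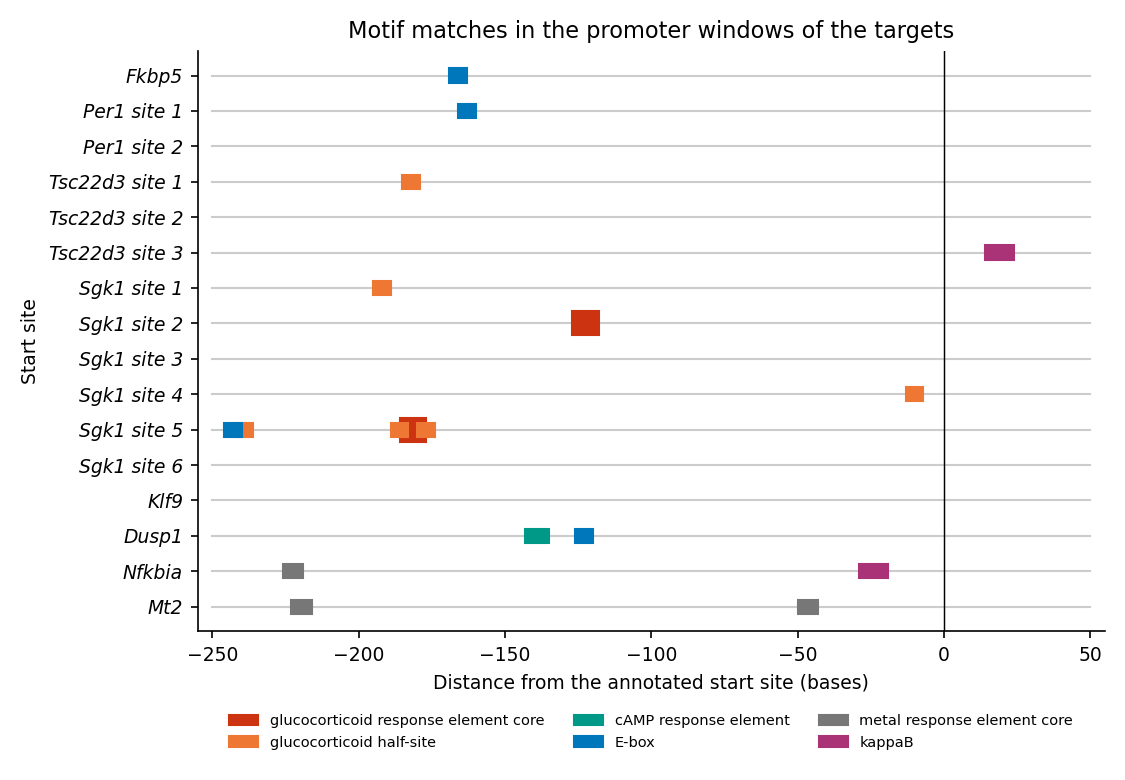
Motif matches in the promoter windows of 8 targets. Each line is 1 annotated start site, the horizontal axis is distance in bases from that start, and coloured boxes are matches on either strand. The tall red boxes of the glucocorticoid core lie in Sgk1 at the second and the fifth start sites, and single TGACG matches are not drawn.

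All 10 genes were measured, and 9 of them had log2 ratios above 0. Of all 11841 measured genes 50.8% had a log2 ratio above 0, and their median was 0.0049 with quartiles of -0.17 and 0.16. The median of the 10 was 0.41. At least 1.2-fold higher in L19M were 7 of the 10, against 13.3% of measured genes, and none was 1.2-fold lower, against 16.5%. At 1.5-fold and at 2-fold the count was 2 of 10, against 1.99% and 0.532% of measured genes. None was that much lower, against 4.07% and 1.71%. These folds carry the pseudocount of the log2 ratio, by which Klf9 was 1.39-fold higher. The counting interval of the ratio lay above 1 for 8 of the 10. The share was 23.1% of the 11802 measured genes with a transcript long enough for it. Nr3c1 was among the 8 with a lower end of only 1.002. The genes were chosen with this contrast known, so nothing is read from any of these counts. By their intervals the 10 genes formed 3 groups. Zbtb16 and Fkbp5 were the furthest above 1, then Klf9, Nfkbia, Tsc22d3, Per1 and Sgk1, whose intervals overlapped one another, and then Nr3c1, Mt2 and Dusp1.

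**Figure D2:**
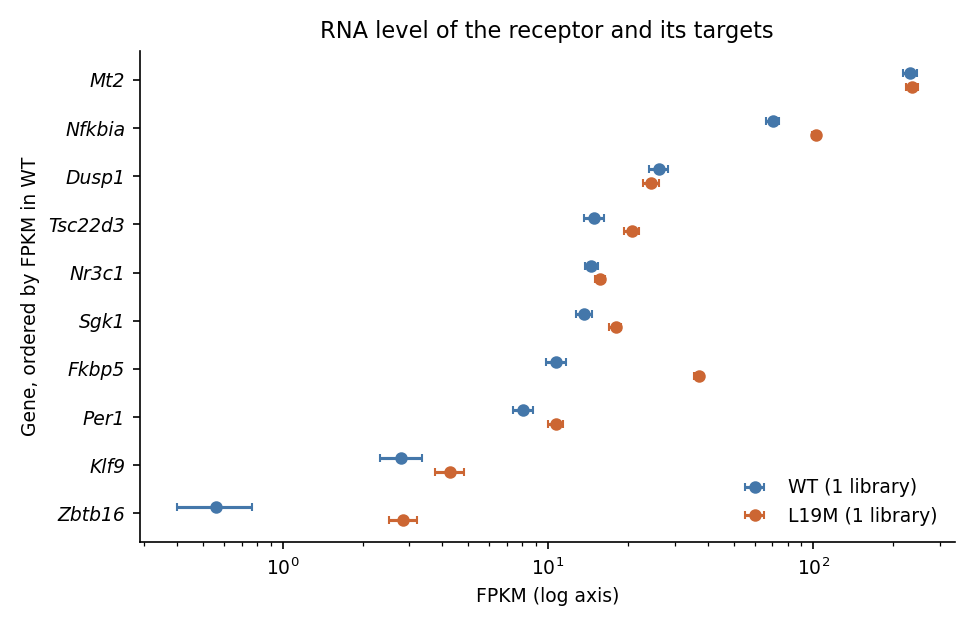
FPKM of the 10 genes in the WT library (blue) and the L19M library (orange) on a log axis, ordered by the WT level, with bars for the 95% counting interval of each level. The pairs of points stand apart for Fkbp5 (10.7 and 36.9 FPKM) and Zbtb16 (0.561 and 2.85 FPKM) and lie on each other for Mt2 (232 and 235 FPKM).

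The receptor gene differed little between the libraries. Nr3c1 (Entrez 14815, chromosome 18 from 39410545 to 39487245 on the minus strand, mm10) had 14.5 FPKM (WT) and 15.7 FPKM (L19M). Its ratio was 1.08 (interval 1.002 to 1.16), and its log2 ratio of 0.10 ranked 3984 of 11841 from the highest. The intervals of the levels, 13.8 to 15.4 and 15 to 16.4 FPKM, overlapped. In WT the receptor's level could not be ordered against those of Tsc22d3 and Sgk1, its neighbours in level.

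Fkbp5 had the largest log2 ratio of the set. It encodes a cochaperone of Hsp90 that lowers the receptor's affinity for hormone, and its induction by the receptor is a short feedback loop. Fkbp5 (Entrez 14229, chromosome 17 from 28398753 to 28486149 on the minus strand) had 10.7 FPKM in WT (interval 9.85 to 11.7) and 36.9 FPKM in the L19M library (interval 35.5 to 38.3). These rest on 558 and 2605 estimated fragments. The ratio was 3.44 (interval 3.14 to 3.78) and the log2 ratio of 1.69 ranked 37 of 11841. In WT Fkbp5 was 7th of the 10 genes in level, and in L19M it was 3rd, behind Mt2 and Nfkbia.

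Zbtb16, Klf9 and Per1 encode regulators of transcription. Zbtb16, also called PLZF, is a BTB and zinc finger repressor. It (Entrez 235320, chromosome 9 from 48654297 to 48835945 on the minus strand) had 0.561 FPKM in WT, from 39 fragments, and 2.85 FPKM (L19M), from 269. Its ratio of 5.09 (interval 3.62 to 7.31) was the largest of the set, and its interval overlapped that of Fkbp5. The log2 ratio was 1.30 and ranked 48. Zbtb16 was the least abundant of the 10 in both libraries and reached the floor of 1 FPKM through L19M alone, so it had to be higher there to count as measured.

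Klf9, a Krüppel-like factor known in human keratinocytes as a glucocorticoid-induced brake on proliferation, was the second lowest in level. It (Entrez 16601, chromosome 19 from 23141226 to 23166911 on the plus strand) had 2.80 FPKM in WT, from 121 fragments, and 4.26 FPKM (L19M), from 250. The ratio was 1.52 (interval 1.22 to 1.91), and the log2 ratio was 0.47. Per1, a repressor in the circadian clock that hormone can also induce directly, had 8.05 FPKM (WT) and 10.7 FPKM (L19M). Per1 (Entrez 18626, chromosome 11 from 69098956 to 69109957 on the plus strand) had a ratio of 1.33 (interval 1.19 to 1.48), and a log2 ratio of 0.37. The levels of all 3 regulators were higher in L19M, and the interval of Zbtb16 lay apart from those of the other 2.

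Tsc22d3 and Sgk1 encode effectors of the hormone in the cytoplasm and nucleus. Tsc22d3, known as GILZ, is a leucine zipper protein that binds and restrains NF-kappaB and AP-1. Tsc22d3 (Entrez 14605, chromosome X from 140539529 to 140600522 on the minus strand) had 14.9 FPKM in WT (interval 13.7 to 16.3) and 20.7 FPKM in the L19M library (interval 19.4 to 22.1). Its ratio was 1.39 (interval 1.25 to 1.55), its log2 ratio was 0.45, and it lies on the X chromosome, whose 357 measured genes had a median of -0.03. Sgk1 encodes a kinase that raises sodium transport and cell survival, and its rapid induction gave it its name. Sgk1 (Entrez 20393, chromosome 10 from 21882184 to 21999902 on the plus strand) had 13.7 FPKM (WT) and 18 FPKM (L19M), a ratio of 1.31 (interval 1.2 to 1.44). The table has 1 row for the gene, so the value does not say which of them, including the one with the inverted pair of half-sites printed above, gave the fragments.

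Of the anti-inflammatory genes, Nfkbia was higher in L19M and Dusp1 was not. Nfkbia encodes IkappaB-alpha, which holds NF-kappaB in the cytoplasm and is itself induced by NF-kappaB as well as by the receptor. Nfkbia (Entrez 18035, chromosome 12 from 55489409 to 55492647 on the minus strand) had 70.1 FPKM in WT (interval 66.4 to 73.9) and 102 FPKM in the L19M library (interval 98.4 to 106). The ratio was 1.46 (interval 1.37 to 1.56), and the log2 ratio of 0.54 ranked 298. Dusp1, a phosphatase that switches off MAP kinases, was the 1 gene of the set with a log2 ratio below 0. It (Entrez 19252, chromosome 17 from 26505591 to 26508472 on the minus strand) had 26.1 FPKM (WT) and 24.4 FPKM (L19M), and its ratio of 0.937 had an interval of 0.843 to 1.04 that holds 1. The interval of Mt2 also held 1. It encodes a metallothionein that binds zinc and is induced by metals as well as by glucocorticoids. Mt2 (Entrez 17750, chromosome 8 from 94172618 to 94173567 on the plus strand) was the most abundant of the 10, at 232 FPKM (WT) and 235 FPKM (L19M). Its ratio was 1.02 (interval 0.940 to 1.10). The neighbouring metallothionein Mt1 had 214 and 250 FPKM, a ratio of 1.17 (interval 1.08 to 1.26). Their coding sequences were identical at 148 of 186 bases (79.6%), and their transcripts shared no run longer than 20 bases.

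**Figure D3:**
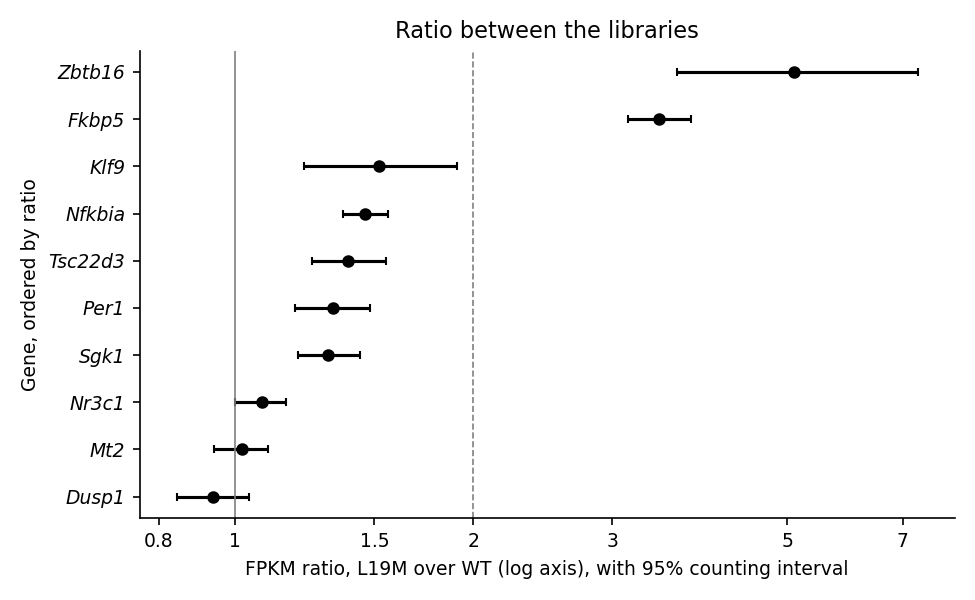
Ratio of FPKM, L19M over WT, on a log axis for the 10 genes, with 95% counting intervals, a solid line at 1 and a dashed line at 2. Fkbp5 (3.44) and Zbtb16 (5.09) lie past 2, Klf9, Nfkbia, Tsc22d3, Per1 and Sgk1 lie between 1.31 and 1.52, and the intervals of Mt2 and Dusp1 cross 1.

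Set against all measured genes, the 9 targets without the receptor had a median log2 ratio of 0.45, and 8 of the 9 were above 0. Their summed level was 378 FPKM (WT) and 455 FPKM (L19M). Most of that sum came from Mt2 and Nfkbia, the 2 most abundant of them. Fkbp5 had a larger log2 ratio than 99.7% of measured genes, Zbtb16 than 99.6%, Nfkbia than 97.5%, Klf9 than 96.4%, Tsc22d3 than 95.8%, Per1 than 93.5% and Sgk1 than 93.4%. Mt2 stood at 53.0% and Dusp1 at 35.8%, in the body of the distribution.

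**Figure D4:**
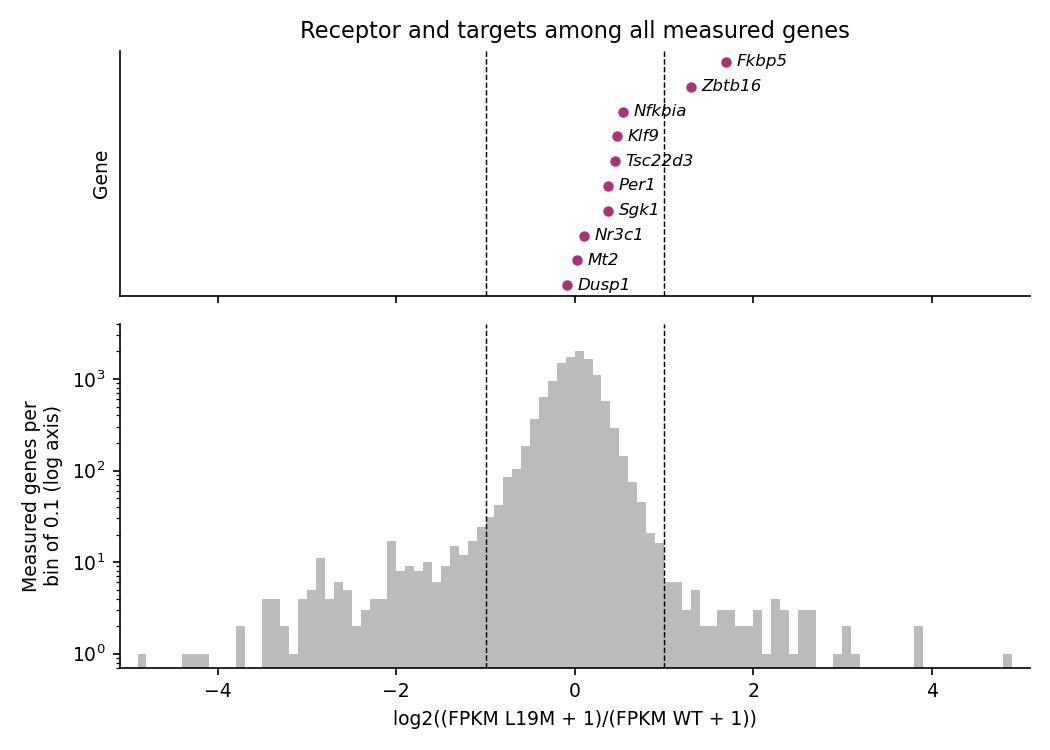
Upper panel, log2 ratio of each of the 10 genes. Lower panel, number of measured genes per bin of 0.1 on a log axis over the same horizontal axis (7 genes lie outside the range from -5 to 5), with dashed lines at 2-fold. Fkbp5 and Zbtb16 lie past the right line, and Dusp1 and Mt2 lie near 0.

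A broader list of 44 other genes induced by glucocorticoids in some tissue had a smaller median log2 ratio than the 10 genes. It too was drawn up with earlier results of these data known, so nothing is read from its counts. Of its 35 measured genes 25 were above 0 and 10 below, with a median of 0.11. The counting interval lay above 1 for 15 and below 1 for 7, against 23.1% and 24.4% of measured genes long enough for it. At least 1.2-fold higher were 11 and lower 4, against 13.3% and 16.5% of measured genes. Only 1 was 2-fold higher and none lower, against 0.532% and 1.71%. That gene was Lcn2, an iron-carrier binding protein that is also an inflammatory marker, with 0.437 and 2.92 FPKM from 4 and 36 fragments. Pdk4, a kinase that turns off glucose oxidation and a strong hormone target in muscle and liver, had 0.761 and 1.96 FPKM, a ratio of 2.57 (interval 1.75 to 3.86). Both Lcn2 and Pdk4 were under 1 FPKM in WT, so they had to be higher in L19M to count as measured. Irs2, an insulin receptor substrate, had 3.10 and 4.97 FPKM. Il1r2, the decoy receptor for interleukin-1, went the other way, with 23.6 FPKM (WT) and 14.0 FPKM (L19M) and a ratio of 0.594 (interval 0.509 to 0.692). Further listed targets lay under the floor of 1 FPKM and were named after their values were seen. Hif3a had 0.179 and 1.05 FPKM (ratio 5.85, interval 3.58 to 10.5), Trim63 had 0.168 and 0.776 FPKM (ratio 4.62, interval 1.59 to 18.2), and Per2 had 0.840 and 0.610 FPKM (ratio 0.726, interval 0.509 to 1.04).

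Among genes for proteins that hold and serve the receptor, Fkbp5 apart, most RNA differences were small. Counted without Fkbp5, 5 of 16 measured Hsp90 chaperones and cochaperones were above 0 and 11 below. Their median was -0.07, with no call at 2-fold. Fkbp4, the cochaperone that competes with Fkbp5 for Hsp90 and favours transport of the receptor to the nucleus, had 104 FPKM (WT) and 93.5 FPKM (L19M). Its ratio of 0.903 had an interval of 0.859 to 0.949, so that it lay below 1 while that of Fkbp5 was 3.44. The stress-inducible Hsp90aa1 had 166 and 131 FPKM and the constitutive Hsp90ab1 641 and 717 FPKM. Dnaja1, an Hsp40, had 25.7 and 22.8 FPKM. Of 20 coregulators 16 were above 0 and 4 below, with a median of 0.10. Of all measured genes 50.8% were above 0. The chaperone and coregulator lists were drawn up with earlier results of these data known, so nothing is read from their counts. The SWI/SNF subunit Smarcd1, which links the receptor to chromatin remodelling, had the largest log2 ratio of the coregulators, 0.47, at 5.06 and 7.41 FPKM. The acetyltransferase Ep300 (0.28), the methyltransferase Ehmt2 (0.28) and the Mediator subunit Med14 (0.24) came next. The related steroid receptors were all under the floor, with Nr3c2, the mineralocorticoid receptor, at 0.127 and 0.201 FPKM, given after its values were seen.

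Genes that make or clear the hormone were mostly too low to measure, with 4 of 13 measured, 2 above 0 and 2 below, and a median of 0.10. Cyp11a1, the enzyme that starts steroid synthesis from cholesterol, had 3.65 FPKM (WT) and 15.8 FPKM (L19M), a ratio of 4.34 (interval 3.42 to 5.56). Cyp11b1, Hsd3b1, Cyp21a1 and Hsd11b1 were chosen after their values were seen. Of these the genes listed for later steps of corticosterone synthesis were at or near 0 in both libraries, and Hsd3b1 was the only Hsd3b gene in the list. Cyp11b1 and Hsd3b1 were listed at 0 in both, and Cyp21a1 had 0.0411 and 0.0304 FPKM. Hsd11b1, which regenerates active hormone from its inert form, had 1.27 FPKM (WT) and 0.687 FPKM (L19M), just under the floor, with a ratio of 0.540 and an interval of 0.253 to 1.07 that holds 1. H6pd, which supplies its cofactor, had 3.64 and 5.12 FPKM. Akr1c18, a reductase that inactivates progesterone, had 4.10 and 1.95 FPKM, and Srd5a1, a steroid reductase, had 17.8 and 15.4 FPKM.

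Several members also answer to NF-kappaB, stress or the clock, and genes of those pathways were counted beside them. The lists of those genes were also drawn up with earlier results of these data known, so nothing is read from their counts. Of all measured genes 50.8% had log2 ratios above 0. In the NF-kappaB feedback list, to which Nfkbia belongs by function, 12 of 13 measured genes were above 0 and 1 below, with a median of 0.43. Bcl3 (1.60 and 4.16 FPKM), Tnfaip3 (0.644 and 1.54 FPKM), Nfkb2 (5.69 and 8.54 FPKM) and Nfkb1 (13.7 and 19.6 FPKM) had the largest log2 ratios, from 0.49 to 0.99. Of these Tnfaip3 reached the floor of 1 FPKM through L19M alone. The ratio of Nfkb1, 1.43 (interval 1.31 to 1.56), lay within the interval of Nfkbia. The exception was Nfkbib, a close relative of Nfkbia, with 35.8 and 29.4 FPKM. Of the inflammatory genes that the receptor represses, 8 of 28 found were measured, 6 above 0 and 2 below, with a median of 0.28. Ccl2, a monocyte chemokine, had 0.589 and 2.54 FPKM from 5 and 29 fragments and was at least 2-fold higher. Ccl2, and also Il1b and Cxcl10, named after their values were seen, were under 1 FPKM in WT. These genes had to be higher in L19M to count as measured. The adhesion molecule Icam1 had 3.06 and 6.28 FPKM, while the cytokine Il1a had 18.5 and 10.6 FPKM and the protease Plat 1.96 and 1.09 FPKM. Whether the levels of Nfkbia and its relatives reflect the receptor or NF-kappaB was not tested.

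Measured clock genes other than Per1 had small differences. Of 15 measured clock genes 6 were above 0 and 9 below, with a median of -0.03 and log2 ratios from -0.16 to 0.30. Nr1d1, a repressor of the clock, had the largest, at 7.20 and 9.12 FPKM, (interval 1.08 to 1.48) for a ratio of 1.27. Csnk1d (0.24), Nr1d2 (0.16) and Nfil3 (-0.16) followed. The log2 ratio of Per1, 0.37, was above this range, but the interval of its ratio, 1.19 to 1.48, overlapped that of Nr1d1. Clock genes under the floor, named after their values were seen, had larger ratios in both directions. Those of Per3 (0.705, interval 0.522 to 0.952), Hlf (0.708, 0.466 to 1.07) and Per2 (0.726, 0.509 to 1.04) were below 1. Those of Npas2 (1.75, 1.07 to 2.95) and Bhlhe41 (1.32, 0.923 to 1.89) were above 1. Immediate early genes, like Dusp1 and Sgk1, answer to serum and stress. Of 18 measured, with a median of 0.12, 14 were above 0, against 50.8% of all measured genes. Atf3 (7.42 and 13.5 FPKM), Klf2 (3.77 and 6.52 FPKM) and Nr4a1 (2.21 and 3.95 FPKM) were higher in L19M, and Egr2 (12.5 and 7.76 FPKM) was lower. Heat shock genes had a median of -0.04 over 9, with Hspb8 at -0.71, Hspd1 at -0.30, Hspa1b at 0.25 and Bag3 at 0.40.

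Close relatives of the members differed in both directions. Among 18 other Dusp phosphatases 8 were above 0 and 10 below, with a median of -0.01. Dusp2, induced in activated immune cells, had 4.60 and 1.37 FPKM and was at least 2-fold lower. The summed T cell markers were also lower in L19M (21.2 and 9.99 FPKM, 4 of 5 measured below 0), and their part in it was not tested. Dusp8 had 3.51 and 1.42 FPKM and Dusp18 had 7.12 and 5.13 FPKM. Dusp6, a feedback phosphatase for ERK, had 7.88 and 14.4 FPKM, against 26.1 and 24.4 FPKM for Dusp1. Of 5 measured genes of the metal response list 2 were above 0 and 3 below, with a median of -0.14. Of these Mt4, a metallothionein of stratified epithelium, had 63.8 FPKM (WT) and 23.8 FPKM (L19M), a ratio of 0.373 (interval 0.282 to 0.487). The zinc importer Slc39a10 had 14.3 and 8.65 FPKM, and the exporter Slc30a1 had 17.8 and 16.1 FPKM. The intervals of the 3 metallothioneins Mt1, Mt2 and Mt4 lay above 1, around 1 and below 1 in turn. Of 9 measured relatives of the members 5 were above 0 and 4 below, with a median of 0.02. Klf13, a near relative of Klf9, had 11.8 and 17.1 FPKM, with a ratio of 1.45 against 1.52 for Klf9. Tsc22d4 had 48.9 and 63.4 FPKM, with a ratio of 1.30 against 1.39 for Tsc22d3. Zbtb7a, another BTB and zinc finger repressor, had 36.0 and 45.1 FPKM.

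Epidermal genes on which glucocorticoids are known to act included larger log2 ratios than any of the 10 genes. Of 24 measured, 8 met the 2-fold mark upwards and none downwards, against 0.532% and 1.71% of measured genes. Of the 24, 17 were above 0 and 7 below, with a median of 0.11. This list was also drawn up with earlier results of these data known, so nothing is read from the counts. The keratins Krt6a (101 and 489 FPKM), Krt6b (128 and 651 FPKM) and Krt16 (208 and 830 FPKM), markers of wounded epidermis that the receptor is known to repress in human keratinocytes, were among the 8. The others were the envelope genes Sprr2d, Sprr1b and Lce3a and the alarmin genes S100a8 and S100a9. Their log2 ratios, from 1.99 to 3.05, were all larger than that of Fkbp5. Lce3a, with 0.825 FPKM in WT and 9.08 FPKM in L19M, reached the floor of 1 FPKM through L19M alone. Of the other keratins in the list, Krt17 (ratio 0.886), Krt10 (0.878) and Krt77 (0.643) were lower in L19M. Krt1 (1.07), Krt5 (1.04) and Krt14 (1.13) lay slightly above 1. These other keratins were named after their values were seen.

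**Figure D5:**
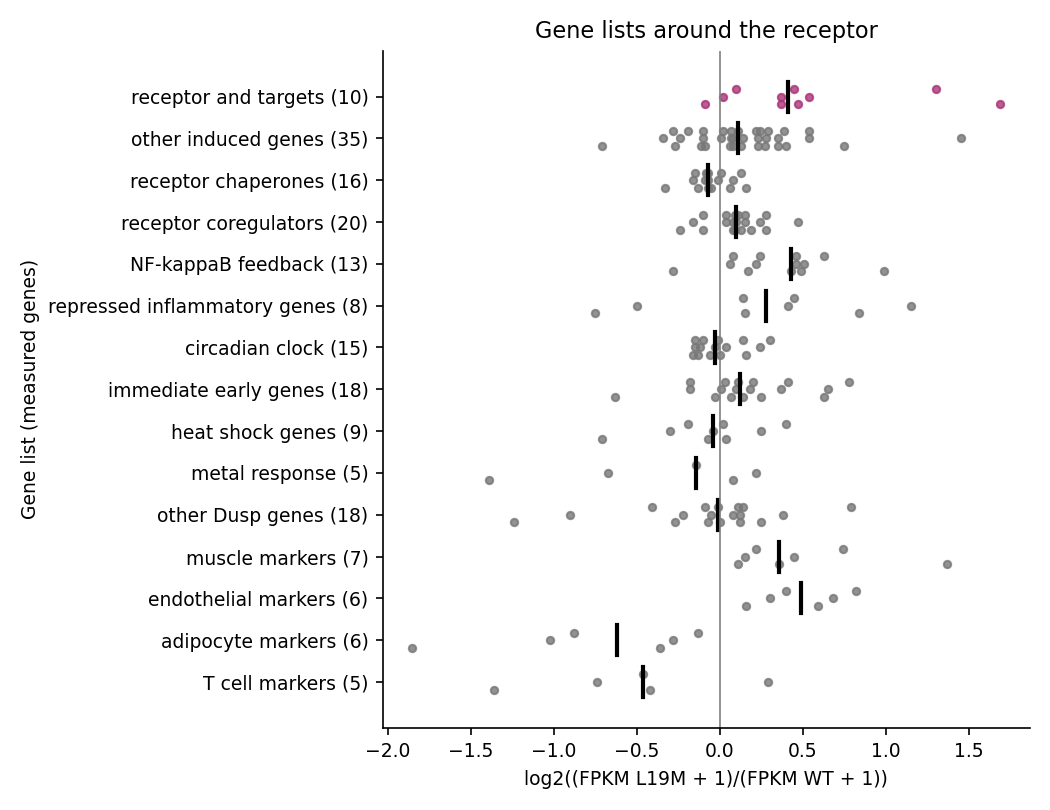
Log2 ratio of every measured gene in the receptor and target set (purple) and in 14 other gene lists (grey), with black bars at the medians and the number of measured genes in brackets. The medians are 0.41 for the set, 0.43 for NF-kappaB feedback, 0.11 for other induced genes, -0.03 for the circadian clock and -0.62 for adipocyte markers.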

How the data were processed

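Polyadenylated RNA of 1 WT and 1 L19M library of neonatal mouse epidermis was measured, and genotypes were taken from the labels. The members and lists were chosen with earlier results of these data known. FPKM per gene, log2 values headed as normalized, and a fold (ratio of L19M over WT) were computed by the authors and deposited in 1 table. Per the submitters' processing notes, the tools were Cufflinks, edgeR and R 3.5.1, whose roles are not stated, and the sources used here name no aligner. The information sheet gives mm10 while those notes list GRCm39. Of 21982 symbols shared with RefSeq of GRCm38, 95.5% had starts no more than 5000 bases from it, and coordinates are therefore mm10, counted from 1. Whether strand was used in counting is not given.

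A pseudocount of 1 was used on the log2 scale, which understates differences of low genes. Low FPKM values stepped as whole fragments of 1 over the library total and the transcript length less a constant (206 bases in WT, 211 in L19M). Values of up to 20 fragments on transcripts of at least 1000 bases were within 0.1 of a whole number in 84.2% of 3290 cases (WT) and 83.6% of 3135 (L19M). Fragments per gene, for transcripts of at least 300 bases, gave exact 95% intervals (Poisson for levels, Clopper-Pearson for ratios). They cover counting error only, and are too narrow even for that where PCR copies, which are not independent molecules, were counted. A count of 0 allows up to 3 fragments, 0.118 FPKM in WT and 0.0873 FPKM in L19M for 2000 bases. The planned design allowed for counts, and its rule for FPKM applied. No test was run. The steps were tested on simulated data.

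Named were all 10 members, the 4 measured genes with the largest absolute log2 ratio in each gene list, any gene past 2-fold, and others marked as chosen after their values were seen, with Foxn1 and Lep. Summed levels are given for 12 marker lists. Alternatives were a pseudocount of 0.1, scaling to the median or by TMM factors, the authors' normalized log2 values, no filter, and a floor of 5 FPKM. Python 3.11.15, numpy 2.4.6, pandas 2.3.3, scipy 1.17.1 and matplotlib 3.10.9 were used. Promoters came from RefSeq (GRCm38.p6).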

Additional observations from a re-analysis of the deposited data

How the results depend on the processing

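No paired analysis was possible because there was 1 library per genotype. No direction of a member's log2 ratio reversed under the alternatives run. Of 40 member values, 39 differed from the main value by less than the distance from the middle to the end of the gene's counting interval on the log2 scale, and the exception was Zbtb16, whose log2 ratio went from 1.30 to 2.16 with a pseudocount of 0.1. With that pseudocount the genes 2-fold or more higher numbered 120 and the median of repressed inflammatory genes was 0.42. The members at least 1.5-fold higher then numbered 3. With a floor of 5 FPKM, 41 genes were 2-fold higher and 107 lower, and 1 member was 2-fold and 1 at least 1.5-fold higher, since Zbtb16 lay under that floor. The list medians were then 0.83 (ligand supply), -0.30 (repressed inflammation) and -0.40 (metal response). With no filter they were 0.00, 0.09 and -0.03, and 0.31 for NF-kappaB feedback. The authors' normalized log2 values gave 0.00 for the Dusp genes. The low-level lists hold few measured genes, so each floor sets which genes enter. Scaling moved all log2 ratios by at most 0.0060. Depth limits Zbtb16 most among the members, with 39 fragments in WT.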

Other observations

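Markers of immune cells, which also respond to glucocorticoids, differed between the libraries in both directions. The summed level of macrophage and Langerhans cell markers was 167 FPKM in WT and 76.0 FPKM in L19M, with 2 of 6 measured genes above 0 and 4 below. The lower sum rests mostly on the antigen presentation genes Cd74 (86.7 and 26.8 FPKM) and H2-Ab1 (50.8 and 11.6 FPKM). Of the others, Csf1r had 7.31 and 7.15 FPKM, Cd68 7.33 and 9.24 FPKM and Lyz2 10.4 and 17.5 FPKM. Adgre1 was lower, with 4.58 and 3.55 FPKM (ratio 0.775, interval 0.634 to 0.947). Cd207, under the floor, had 0.267 and 0.0394 FPKM from 5 and 1 fragments. T cell markers summed to 21.2 and 9.99 FPKM, with Cd3g at 13.9 and 4.81 FPKM. Mast cell and neutrophil markers summed to 129 and 280 FPKM, with S100a8, which keratinocytes also make, at 25.1 and 151 FPKM. Of 7 measured genes of that list 6 were above 0 and 1, Mcpt4, below. Melanocyte markers summed to 181 and 118 FPKM, with 2 of 6 measured genes above 0 and 4 below. Dct (93.0 and 60.2 FPKM), Pmel (48.9 and 26.0 FPKM) and Tyrp1 (15.8 and 5.08 FPKM) were lower, Mlana had 16.0 and 15.5 FPKM, and Sox10 (4.25 and 7.01 FPKM) and Mitf (3.01 and 3.71 FPKM) were higher. Csf1r, Adgre1, Cd207, Mlana and Mitf were chosen after their values were seen. Fibroblast markers summed to 751 and 797 FPKM and erythroid markers to 24.4 and 21.9 FPKM.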
